A study of Mus musculus with 24 samples.

Results

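Blood B cells were compared with blood monocytes in 3 transplanted mice by the lentiviral barcodes carried in their DNA, which gave 6 of the 24 samples of the series (B cells and monocytes of mice 1, 2 and 3, paired by the mouse number in the labels). The other 18 samples were T cells and neutrophils of the blood and 4 macrophage populations of heart and kidney from the same mice. Hematopoietic stem cells (HSCs) from the bone marrow of C57BL/6 mice were infected in culture, 5 days after plating, with the barcoding lentivirus pBC008. Cells spelled GFP+LinSca1+cKit+ in the labels were sorted 4 days after infection, so that barcoding preceded transplantation by several days of culture. They were injected into the vein of CD45.2 male recipients, aged 5 weeks and given 9 Gy of whole-body irradiation, together with CD45.2+ LincKit+Sca1- rescue cells, for which no barcoding is stated. All 6 samples share this treatment and were taken 2 months later, and no untreated group was analysed here. The strain label is C57BL/6J. Only cells descended from infected founders carry a barcode, and cells without one, such as the recipient's own, are not seen. No gene was measured, so the sorted cell types could not be checked against markers, and the numbers of sorted cells and their gates are not given in the sources used here.

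B cells make antibodies and arise in the bone marrow through lymphoid progenitors, whereas monocytes arise through myeloid progenitors, live for a short time in blood and can enter tissues to become macrophages. A stem cell can give rise to both, and progenitors further along give rise to only some blood lineages. A barcode that was integrated in a founder before transplantation is passed to its descendants, so that finding it in both populations of a mouse points to a common barcoded ancestor. A barcode is called a founder label here only in that sense: several founders may hold the same barcode and a founder may hold several.

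Each file gave raw read counts for barcodes of 52 bases, and a barcode's share is its percentage of all reads of the sample. The 6 samples held 9657419 to 12464665 reads. A barcode was counted as present at 0.01% of reads, which is 966 to 1246 reads, and a count of 0 allows a share of up to 2.41e-05% to 3.11e-05%. Reads are copies made by PCR and carry no molecular identifiers, so intervals and these limits cover counting error only. The labels give no batch. No 2 of the 6 files agreed within sampling noise, since even for the most alike pair chi-square per degree of freedom reached 2178.

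The barcodes that carry the comparison are printed 5′ to 3′ as in the deposited files. They are synthetic and have no place in the mouse genome. Their bases alternate between C or G and A or T, and a capital marks a base off that pattern. Names give the reason for choice and the mouse: BS for the barcodes most skewed to B cells, MS for those most skewed to monocytes, EV for those with the most even ratio, BH for the highest in B cells and MH for the highest in monocytes, followed by the mouse number and a letter for the rank. In all, 34 distinct barcodes were named, and any pair of them differed at 16 or more positions. The first lines are strongly B-skewed barcodes, among them the leading B cell barcodes of mice 2 and 3.
BS-1a: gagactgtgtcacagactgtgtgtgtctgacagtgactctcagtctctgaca
BS-2a: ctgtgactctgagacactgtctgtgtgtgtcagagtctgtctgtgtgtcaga
BS-2c: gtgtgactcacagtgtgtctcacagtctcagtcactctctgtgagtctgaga
BS-3a: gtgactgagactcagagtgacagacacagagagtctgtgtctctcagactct
BS-3b: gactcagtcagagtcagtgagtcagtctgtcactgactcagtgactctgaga
BH-2a: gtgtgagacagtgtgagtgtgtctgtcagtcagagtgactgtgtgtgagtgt
BH-3a: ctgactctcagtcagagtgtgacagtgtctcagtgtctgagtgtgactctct

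The next are barcodes far higher in monocytes than in B cells, among them the leading monocyte barcode of each mouse.
MH-1a: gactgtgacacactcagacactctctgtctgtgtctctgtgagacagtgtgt
MS-1a: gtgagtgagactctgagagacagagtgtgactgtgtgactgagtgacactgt
MS-2a: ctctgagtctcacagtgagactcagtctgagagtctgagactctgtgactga
MH-2b: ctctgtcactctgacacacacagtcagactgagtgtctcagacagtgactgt
MS-3a: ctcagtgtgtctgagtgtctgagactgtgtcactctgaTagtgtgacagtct
MH-3a: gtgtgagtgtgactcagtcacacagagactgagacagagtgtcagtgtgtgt
MH-3b: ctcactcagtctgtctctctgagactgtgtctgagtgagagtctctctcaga

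The last are high in both populations and close to even between them.
BH-1a: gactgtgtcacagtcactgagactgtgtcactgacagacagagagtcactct
EV-1a: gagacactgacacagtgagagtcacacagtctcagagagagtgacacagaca
EV-1b: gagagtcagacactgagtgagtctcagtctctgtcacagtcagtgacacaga
EV-2a: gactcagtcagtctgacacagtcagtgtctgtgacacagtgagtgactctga
EV-2b: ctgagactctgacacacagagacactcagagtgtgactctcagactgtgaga
BH-2c: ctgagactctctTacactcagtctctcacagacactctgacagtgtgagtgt
EV-3a: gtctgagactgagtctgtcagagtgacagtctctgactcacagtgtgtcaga
EV-3b: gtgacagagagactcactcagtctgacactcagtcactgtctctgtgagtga

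B cells drew on more barcodes than monocytes, and their reads were spread more evenly. Present in B cells were 475, 296 and 366 barcodes in mice 1, 2 and 3, against 229, 148 and 134 in monocytes. Every B cell sample lay above every monocyte sample, and the ratio within a mouse was 2.07, 2.00 and 2.73. The effective number of barcodes (Shannon entropy, exponentiated) was 146, 91.9 and 95.9 in B cells, against 42.4, 30.9 and 23.0 in monocytes. Again the groups did not overlap, with ratios of 3.45, 2.98 and 4.17 within the mice and a geometric mean of 3.50. An exact two-sided permutation of the 6 labels gave p = 0.1 for both measures, the smallest that 3 samples against 3 allow, and 0.25 after Benjamini-Hochberg adjustment over the 7 tests made. The 10 leading barcodes held 35.5%, 42.1% and 45.1% of reads in B cells and 62.3%, 65.7% and 75.4% in monocytes. How many sorted cells stand behind each sample is not known, so a difference in cell input cannot be told apart from a difference in founders.

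B cells and monocytes of the same mouse shared a substantial part of their reads. Their overlap, for which each barcode's smaller share was summed, was 0.395, 0.408 and 0.338 in mice 1, 2 and 3 (mean 0.381 ± 0.0372, SD, n = 3). B cells of a mouse set against monocytes of another mouse overlapped by 0.00906 ± 0.00101 on average (SD, 6 pairs), with a highest value of 0.00997. The lowest value within a mouse was therefore far above the highest between mice, and an exact one-sided permutation of the 6 possible pairings gave p = 0.167, the smallest it can give (adjusted p = 0.25).

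Set beside other pairs of blood populations, the B cell and monocyte overlap was close to that of B cells with T cells and far below that of neutrophils with monocytes. Neutrophils, the other myeloid population of the blood, overlapped with monocytes by 0.907 ± 0.0203 (SD, n = 3). The overlap of B cells with monocytes was lower than this in 3 of 3 mice, with a mean difference of -0.526 ± 0.0372. B cells overlapped with T cells, the other lymphoid population, by 0.336 ± 0.0559, and with neutrophils by 0.350 ± 0.0230. The overlap with monocytes exceeded that with T cells in 3 of 3 mice, by 0.0408, 0.0285 and 0.0655 (mean 0.0449 ± 0.0188). With the Morisita-Horn index in place of this overlap, the difference was 0.00477 and did not have the same sign in all 3 mice (exact sign flips, p = 1.0), so the order of these overlaps depends on the index. With the Jaccard index of barcodes present, the difference from neutrophils with monocytes was -0.194. Exact two-sided sign flips over the 3 mice gave p = 0.25 for each of these differences, the smallest possible, so neither passed a threshold of 0.05. These comparisons reuse the same B cell and monocyte samples.

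**Figure D1:**
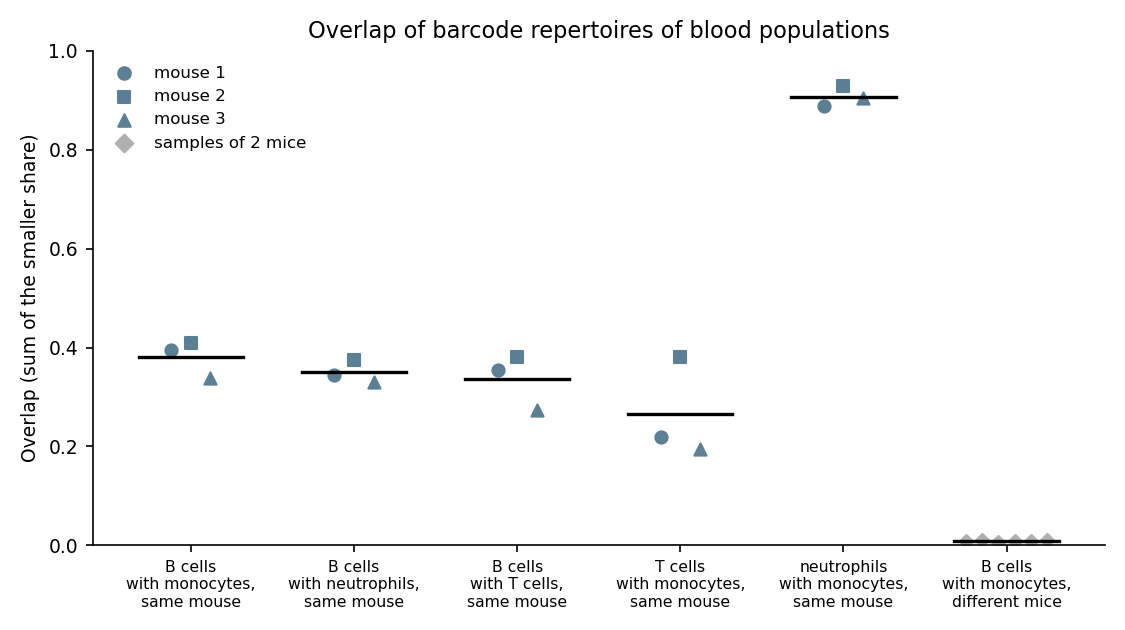
Overlap of barcode shares (y axis, sum of the smaller share, no unit) for 5 pairs of blood populations of the same mouse and for B cells and monocytes of different mice. Symbols are mice, diamonds are pairs of samples from 2 mice, and black lines are means; B cells with monocytes average 0.381 and neutrophils with monocytes 0.907.

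Most barcodes of monocytes were also found in B cells, while most barcodes of B cells were not found in monocytes. The second part follows largely from the counts. Monocytes held 229, 148 and 134 barcodes in mice 1, 2 and 3, against 475, 296 and 366 in B cells. Even with every monocyte barcode found in B cells, no more than the monocyte counts could be shared. Present in both populations were 195, 123 and 113 barcodes in mice 1, 2 and 3. They made up 41.1%, 41.6% and 30.9% of the barcodes present in B cells (mean 37.8% ± 6.03) and 85.2%, 83.1% and 84.3% of those present in monocytes (84.2% ± 1.03, SD, n = 3). By reads the shared barcodes dominated both populations. They held 80.4%, 84.6% and 78.1% of B cell reads and 97.2%, 97.0% and 96.4% of monocyte reads.

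Barcodes present in B cells and below 0.01% in monocytes numbered 280, 173 and 253, and held 17.5%, 13.6% and 19.9% of B cell reads. Barcodes present in monocytes and below 0.01% in B cells numbered 34, 25 and 21, and held 1.48%, 1.54% and 2.03% of monocyte reads. Their levels were low to middling. The highest share in B cells of a barcode missing from monocytes was 0.616%, 1.35% and 0.700% in the 3 mice, and the highest share in monocytes of a barcode missing from B cells was 0.242%, 0.375% and 0.500%. Few of them had no read at all in the other population. That was so for 19, 10 and 22 of the B cell barcodes and for 0, 1 and 1 of the monocyte barcodes.

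Whether a B cell barcode was found in monocytes went with its level. Of 61 barcodes at 1% or more of B cell reads, 60 were present in monocytes. Of 339 between 0.1% and 1%, 204 were present there (59.6% ± 6.97, SD over 3 mice), and of 737 between 0.01% and 0.1%, 167 were (22.3% ± 5.72). In the other direction the level made less difference. Of 54 barcodes at 1% or more of monocyte reads, 54 were present in B cells, as were 97 of 112 between 0.1% and 1% (85.5% ± 6.27) and 280 of 345 between 0.01% and 0.1% (81.2% ± 1.90). The lowest bins therefore differed most, and in each of the 3 mice the B cell value (15.9% to 26.9%) lay below the monocyte value (79.2% to 83.0%). The smaller number of barcodes present in monocytes also caps the B cell values, so the counts partly set the direction of this difference. The exception at 1% or more was BS-2a in mouse 2. In single mice the bins at 1% or more held 17 to 27 barcodes. For barcodes at 1% or more of monocyte reads, the lowest B cell level was 1.42%, 1.64% and 1.005% of the monocyte level in mice 1, 2 and 3. No marker was measured, so the part that other sorted cells had in low shares was not tested.

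**Figure D2:**
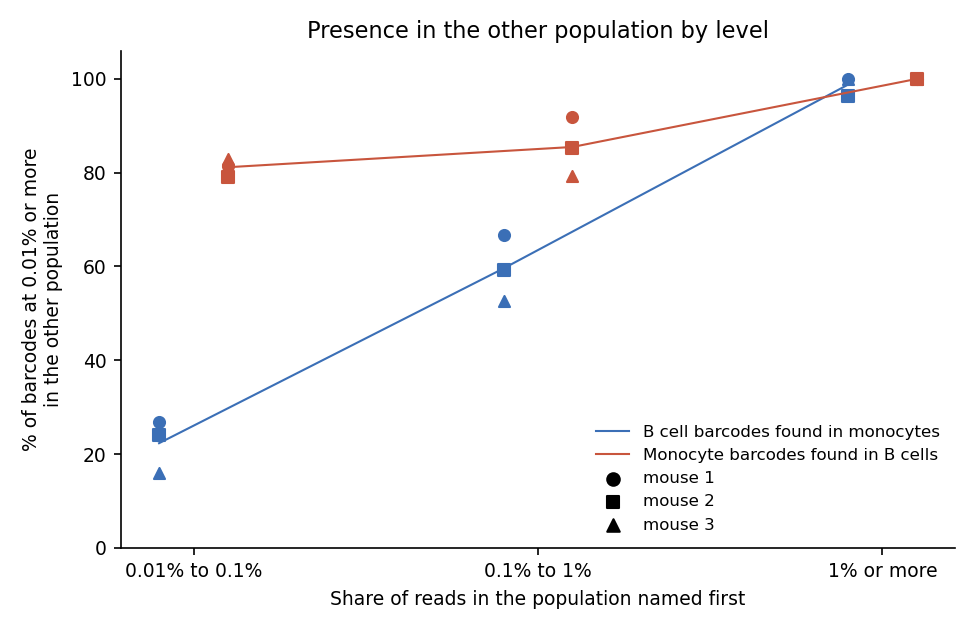
Percentage of barcodes that are present, at 0.01% of reads or more, in the other population (y axis), by their share of reads in the population named first (x axis). Blue points are B cell barcodes looked up in monocytes and red points monocyte barcodes looked up in B cells, symbols are mice and lines join means; at 0.01% to 0.1% the means are 22.3% and 81.2%.

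The levels of shared barcodes were only loosely related. Over the barcodes present in both populations, Pearson's r of the log10 shares was 0.443, 0.431 and 0.366 in mice 1, 2 and 3, and Spearman's rho was 0.343, 0.378 and 0.325. These are descriptions over 195, 123 and 113 barcodes that share the same libraries. Of the 10 leading barcodes of each population, 5, 4 and 4 were common to both. The leading 10 of B cells held 39.2%, 29.8% and 42.2% of monocyte reads, and the leading 10 of monocytes held 26.7%, 24.6% and 26.2% of B cell reads.

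The single leading barcode differed between the populations in every mouse. In mouse 1 the leader of B cells, BH-1a, held 8.41% of B cell reads and 3.60% of monocyte reads, where it ranked 10th. In mouse 2 the leader of B cells, BH-2a, held 7.14% of B cell reads and 0.176% of monocyte reads, where its rank was 40. In mouse 3 the leader of B cells, BH-3a, held 9.85% of B cell reads and 0.459% of monocyte reads, at rank 24. The leading B cell barcode was thus also high in monocytes in mouse 1, and well below 1% there in mice 2 and 3.

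The leaders of monocytes were likewise lower in B cells. MH-1a held 0.702% of B cell reads, at rank 24, and 9.57% of monocyte reads. MS-2a held 0.191% of B cell reads, at rank 77, and 11.6% of monocyte reads. MH-3a held 3.26% of B cell reads, at rank 6, and 18.0% of monocyte reads, the highest share in either population. Only in mouse 3 was the leader of monocytes among the 10 leading B cell barcodes.

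Barcodes were then classed by their ratio in each mouse. All barcodes at 0.1% or more of reads in either sample were taken, 0.01% was added to both shares, and a ratio above 4-fold in either direction was called skewed. With 1 sample of each population in a mouse there is no test of a single barcode. Of 455 such barcodes over the 3 mice, 289 (63.5%) were skewed to B cells, 68 (14.9%) were skewed to monocytes and 98 lay within 4-fold. B-skewed were 103 of 176 barcodes in mouse 1 (58.5%), 81 of 133 in mouse 2 (60.9%) and 105 of 146 in mouse 3 (71.9%). Monocyte-skewed were 27, 20 and 21 barcodes (15.3%, 15.0% and 14.4%), and within 4-fold lay 46, 32 and 20. The split was alike in the 3 mice, with 63.8% ± 7.15 of barcodes B-skewed and 14.9% ± 0.489 monocyte-skewed (SD, n = 3).

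Part of this asymmetry depends on the scale. B cells spread their reads over more barcodes, and over the barcodes present in both samples the median log2 ratio of B cells over monocytes was 1.16, 0.80 and 1.70 in mice 1, 2 and 3. B-skewed barcodes were 80.9% ± 2.15 of all skewed barcodes on the plain ratio, and 66.4% ± 4.34 when each mouse's ratios were centred on that median. Among barcodes at 1% or more in either sample, the skewed classes were nearly equal, with 30.8% B-skewed and 29.5% monocyte-skewed. Just inside the 4-fold limit the nearest B-skewed barcodes had ratios of 4.46, 4.18 and 4.07, and just outside it of 3.99, 3.55 and 2.55. On the monocyte side the nearest folds inside were 4.05, 4.34 and 4.33, and outside 3.89, 3.70 and 3.99.

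**Figure D3:**
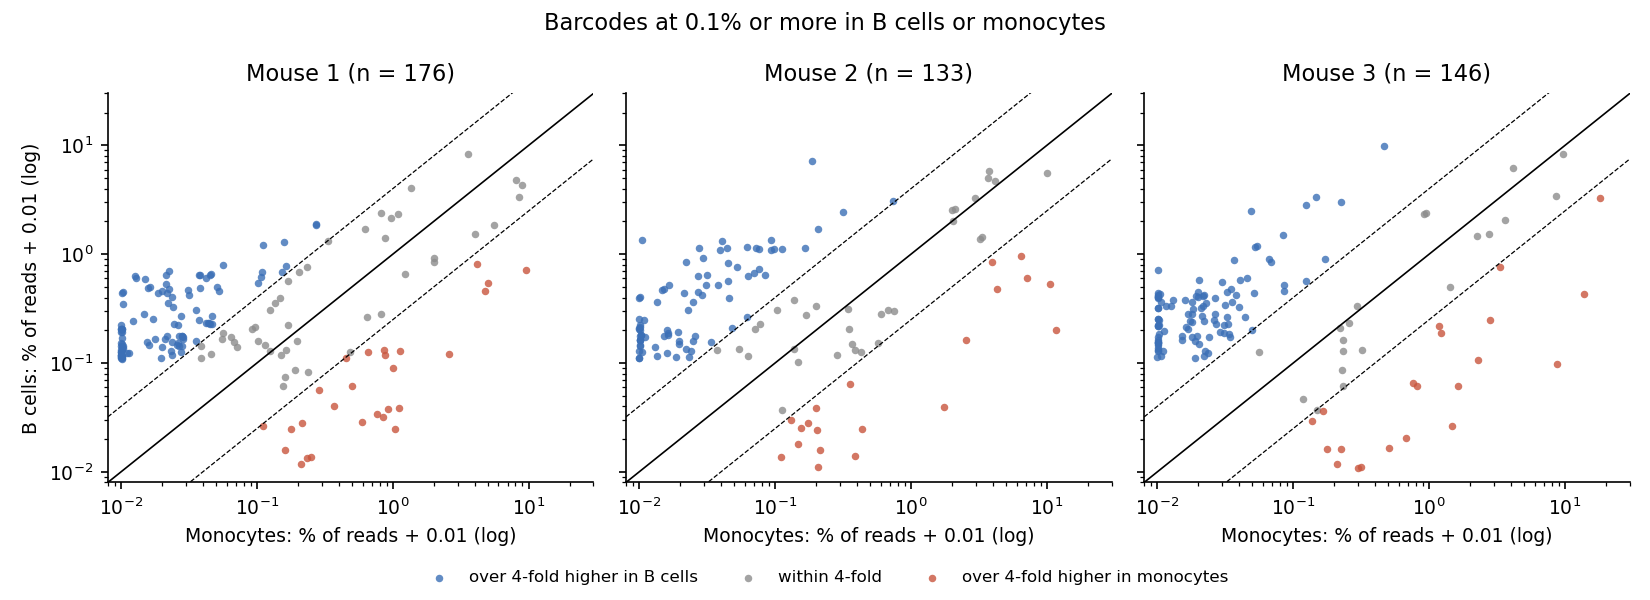
Share of reads in B cells (y axis, percent with 0.01 added, log scale) against the share in monocytes (x axis, same scale) for each barcode at 0.1% or more in either, by mouse. The solid line marks equal shares and the dashed lines a 4-fold difference; blue barcodes are over 4-fold higher in B cells (289 in all), red over 4-fold higher in monocytes (68) and grey within 4-fold (98).

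The spread of ratios was of the same order as between B cells and T cells, and much wider than between neutrophils and monocytes. The median barcode differed 8.20-, 10.1- and 13.3-fold, in either direction, between B cells and monocytes. Between B cells and T cells it differed 10.5- to 15.7-fold, and between neutrophils and monocytes 1.20- to 1.40-fold. Of 473 barcodes tested between B cells and T cells, 282 (59.6%) were over 4-fold higher in B cells and 97 (20.5%) over 4-fold higher in T cells. Within 4-fold lay 21.3% ± 6.66 of barcodes for B cells and monocytes, 19.3% ± 7.33 for B cells and T cells, and 96.6% ± 5.85 for neutrophils and monocytes (SD, n = 3 mice). The last comparison held 171 barcodes, of which 0 (0.0%) were over 4-fold higher in neutrophils and 7 (4.09%) over 4-fold higher in monocytes, all in mouse 1.

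**Figure D4:**
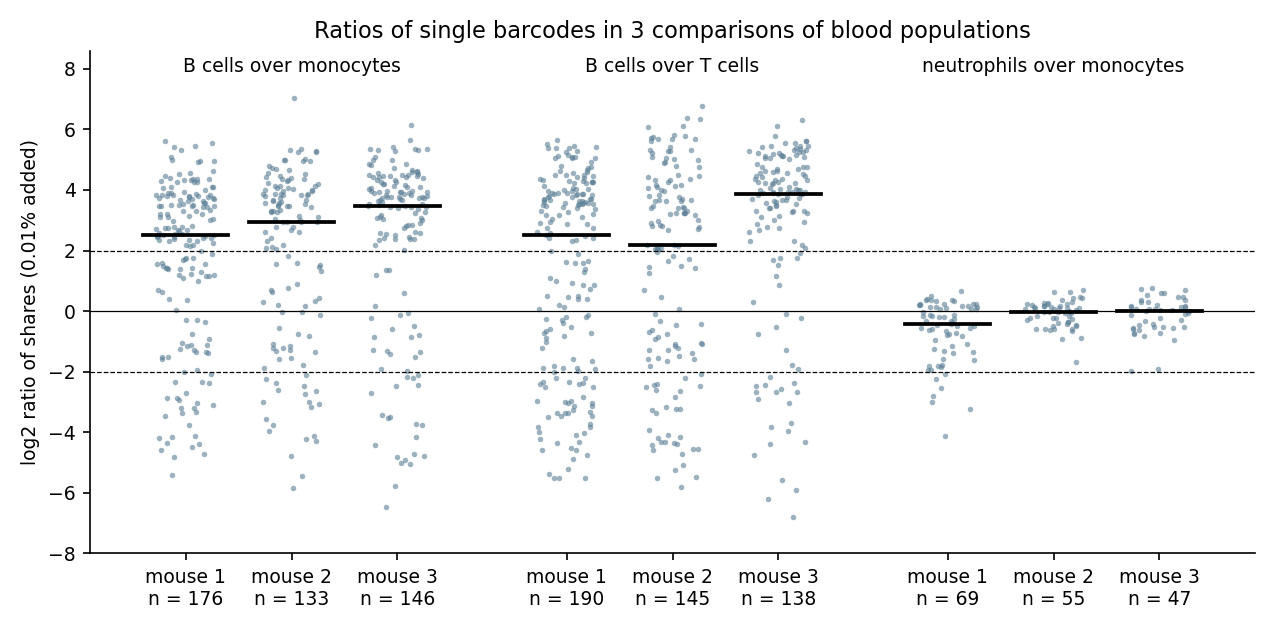
log2 ratio of shares (y axis, 0.01% added to both shares) of every barcode at 0.1% or more in either population, for B cells over monocytes, B cells over T cells and neutrophils over monocytes in each mouse. Points are barcodes, black bars medians and dashed lines 4-fold differences; 96.6% of barcodes lie inside the dashed lines for neutrophils and monocytes and 21.3% for B cells and monocytes.

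The B-skewed barcodes were mostly of middling level in B cells and near the presence limit in monocytes. Their median share in B cells was 0.215%, 0.351% and 0.275% in mice 1, 2 and 3, and their median share in monocytes 0.0118%, 0.0121% and 0.01003%. Together they held 46.4% ± 10.4 of B cell reads and 2.72% ± 0.325 of monocyte reads. Present in monocytes were 153 of the 289. The choice of these barcodes fixes the direction of all these values.

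The strongest skew to B cells in each mouse came from barcodes with hardly any monocyte reads. BS-2a held 1.35% of B cell reads in mouse 2 (168822 reads) and 0.000445% of monocyte reads (43 reads), a 131-fold ratio with 0.01% added. It also reached 0.00188% in the monocytes of another mouse, so its monocyte reads in mouse 2 are within the level at which barcodes turn up in samples of other mice. BS-3a held 0.700% of B cell reads and 0.000127% of monocyte reads in mouse 3. BS-1a held 0.616% of B cell reads and 0.00272% of monocyte reads in mouse 1. These are the same barcodes that led those missing from monocytes.

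Some highly abundant B cell barcodes were skewed as well. BH-2a and BH-3a, the leaders of mice 2 and 3, were 38.4- and 21.0-fold higher in B cells than in monocytes. BS-3b held 2.48% of B cell reads and 0.0393% of monocyte reads. Among barcodes at 1% or more of B cell reads, 0 of 17, 7 of 27 and 7 of 17 had a monocyte level below 5% of their B cell level in mice 1, 2 and 3. The lowest such level was 8.33% of the B cell level in mouse 1, 0.0329% in mouse 2 and 1.59% in mouse 3. At these limits mouse 1 held no barcode that was high in B cells and nearly missing from monocytes.

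The monocyte-skewed barcodes were fewer and larger. Their median share was 0.0303%, 0.0246% and 0.0510% in B cells, against 0.762%, 0.362% and 0.806% in monocytes. Together they held 4.35% ± 1.01 of B cell reads and 49.4% ± 10.1 of monocyte reads (SD, n = 3 mice). Present in B cells were 53 of the 68, a share of 77.2% ± 7.14, against 53.0% ± 2.43 for the B-skewed barcodes in monocytes. These 2 shares were not tested against each other, since both follow from how the classes were drawn.

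The most extreme of them in mice 2 and 3 were also among the 10 leading barcodes of monocytes. MS-3a held 0.0879% of B cell reads and 8.74% of monocyte reads in mouse 3, an 89.4-fold ratio with 0.01% added. MS-2a, the leader of monocytes in mouse 2, was 57.8-fold lower in B cells. MS-1a held 0.0147% of B cell reads and 1.04% of monocyte reads in mouse 1, a 42.4-fold ratio, and ranked 19 in monocytes. Others of high level were MH-2b, with 0.528% of B cell and 10.6% of monocyte reads, and MH-3b, with 0.418% in B cells and 13.8% in monocytes. Among barcodes at 1% or more of monocyte reads, 3 of 19, 3 of 18 and 5 of 17 had a B cell level below 5% of their monocyte level. The lowest was 1.005% of the monocyte level, in mouse 3.

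Barcodes within 4-fold included large contributors to both populations. The 98 of them held 38.9% ± 9.38 of B cell reads and 44.9% ± 9.44 of monocyte reads. EV-2a was almost even, with 2.02% of B cell reads and 2.04% of monocyte reads in mouse 2. EV-3a held 8.25% of B cell reads and 9.65% of monocyte reads in mouse 3, and EV-3b 6.24% in B cells and 4.12% in monocytes. BH-2c ranked 3rd in both populations of mouse 2, with a share of 5.60% in B cells and 10.0% in monocytes. The most even pair of mouse 1 at 1% or more were EV-1a, with 4.79% in B cells and 8.11% in monocytes, and EV-1b, with 4.30% in B cells and 8.96% in monocytes.

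EV-1a and EV-1b also kept like levels in every other population of mouse 1, for example 0.403% and 0.362% of T cell reads and 9.49% and 10.6% of neutrophil reads. Pairs of like profile were not rare. Of the 455 barcodes, 81 had a partner in the same mouse within 1.5-fold in all 8 populations, forming 35 groups of up to 6 barcodes. Whether a group marks a founder with several integrations was not tested. With each group counted once, 409 of the 455 remained.

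The classes were followed into the libraries that had no part in defining them, beginning with T cells and neutrophils. Neutrophils overlapped with monocytes by 0.907, so choosing barcodes by their monocyte level largely sets their neutrophil level as well. B-skewed barcodes held 19.7%, 22.1% and 18.0% of T cell reads in mice 1, 2 and 3, against 1.65%, 1.78% and 1.84% of neutrophil reads. T cells were higher in 3 of 3 mice, by 18.2 ± 2.07 percentage points. The size of this difference depends on how the class is drawn, from 38.3 points at 2-fold to 7.97 points at 10-fold, with 10.6 when 0.1% was added, 7.88 at a minimum share of 1% and 9.15 with centred ratios. Monocyte-skewed barcodes held 41.5%, 53.1% and 59.8% of neutrophil reads and 4.66%, 7.56% and 1.003% of T cell reads. Neutrophils were higher in 3 of 3 mice, by 47.1 ± 11.1 points (SD, n = 3), and by 31.2 points with the class drawn at 10-fold. Exact two-sided sign flips gave p = 0.25 for each, the smallest possible, and neither passed the threshold. Since the class rule largely sets the neutrophil side, nothing is read from the direction of these differences. B-skewed barcodes also held 18.6% of cardiac Ccr2hi and 19.4% of cardiac Ccr2lo macrophage reads on average. Their share of T cell reads is therefore not particular to lymphoid cells.

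For single monocyte-skewed barcodes, neutrophils followed monocytes. The neutrophil share lay within 4-fold of the monocyte share in 67 of the 68. MS-3a, for example, held 8.002% of neutrophil reads, MS-2a 12.6% and MS-1a 1.30%. In the other classes this was so for 281 of 289 B-skewed barcodes and 91 of the 98 within 4-fold. Over all barcodes compared between neutrophils and monocytes it was so for 96.6% ± 5.85 (SD, n = 3 mice). The count of 67 is therefore not particular to monocyte-skewed barcodes. The median neutrophil share of B-skewed barcodes was 0.00861%, 0.00698% and 0.00737% in mice 1, 2 and 3. Like their monocyte share, this is near the 0.01% added to both shares. Their count is therefore largely set by the added amount and is not read as agreement. The T cell share of monocyte-skewed barcodes was over 4-fold below the monocyte share in 63 of 68, beside 13 of 289 B-skewed barcodes and 31 of the 98 within 4-fold. It was within 4-fold of the B cell share in 52 of 68, beside 40 of 289 and 41 of 98. Choice by a high monocyte level favours the first count. The second is easily met, since the median T cell share of this class was 0.0122%, 0.0201% and 0.0118%, near the added 0.01%. Across the named barcodes of this kind the T cell share was 0.0588% for MS-3a, 0.261% for MS-2a and 0.0106% for MS-1a.

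For single B-skewed barcodes, T cells did not follow B cells in most cases. The T cell share was over 4-fold below the B cell share in 239 of the 289 (79, 65 and 95 in the 3 mice), and within 4-fold of it in 40. It was over 4-fold below in 35 of the 98 barcodes within 4-fold and in 12 of the 68 monocyte-skewed barcodes. The choice of B-skewed barcodes by a high B cell level favours this. Present in T cells were 86 of the 289, beside 86 of the 98 and 41 of the 68. Over 4-fold higher in T cells than in monocytes were 41 of the 289, beside 27 of the 98 and 1 of the 68. BS-2a had 0.00235% of T cell reads and BS-3a 0.000284%, so both were B cell barcodes without a matching T cell level. BS-2c showed the other pattern, with 0.394% of B cell reads, 0.242% of T cell reads and 0.000217% of monocyte reads. BH-2a and BH-3a lay between, with 2.64% and 2.61% of T cell reads. The 19.9% ± 2.05 of T cell reads in B-skewed barcodes thus came from a minority of these barcodes.

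The barcodes within 4-fold were split in T cells. They held 53.4% ± 15.0 of T cell reads and 44.4% ± 9.06 of neutrophil reads. Their T cell share lay within 4-fold of the B cell share in 41 of the 98, was over 4-fold above the monocyte share in 27 and over 4-fold below it in 31. BH-2c held 9.51% of T cell reads, and EV-2a held 0.139%. An even ratio between B cells and monocytes therefore went with both high and low T cell levels.

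Renal M1 macrophages split over the classes much as monocytes did. The other 3 tissue populations held more reads in B-skewed and fewer in monocyte-skewed barcodes than monocytes in 3 of 3 mice. This difference was not tested. The classes were drawn on the monocyte shares, which favours that direction, so nothing is read from it. In renal M1 macrophages, B-skewed barcodes held 1.06% ± 0.342 of reads and monocyte-skewed barcodes 51.6% ± 9.75, beside 2.72% and 49.4% in monocytes. In renal M2 macrophages they held 14.2% ± 3.07 and 10.6% ± 1.47. In cardiac Ccr2hi macrophages B-skewed barcodes held 18.6% ± 8.40 and monocyte-skewed barcodes 10.9% ± 6.56, and in cardiac Ccr2lo macrophages 19.4% ± 7.31 and 8.02% ± 4.96 (SD, n = 3 mice each). Of the 289 B-skewed barcodes, 265 were present in cardiac Ccr2hi, 271 in cardiac Ccr2lo, 270 in renal M2 and 75 in renal M1 macrophages. Presence was about as frequent in the other classes except in renal M1 macrophages. It was found for 62, 62, 68 and 67 of the 68 monocyte-skewed barcodes and for 96, 96, 98 and 86 of the 98 within 4-fold, in the same order of populations. BS-1c, for example, held 0.439% of B cell reads and 0.000306% of monocyte reads, beside 0.361% of renal M2 reads and 0.236% of cardiac Ccr2lo reads. No marker was measured, so the part that other sorted cells had in these reads was not tested.

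**Figure D5:**
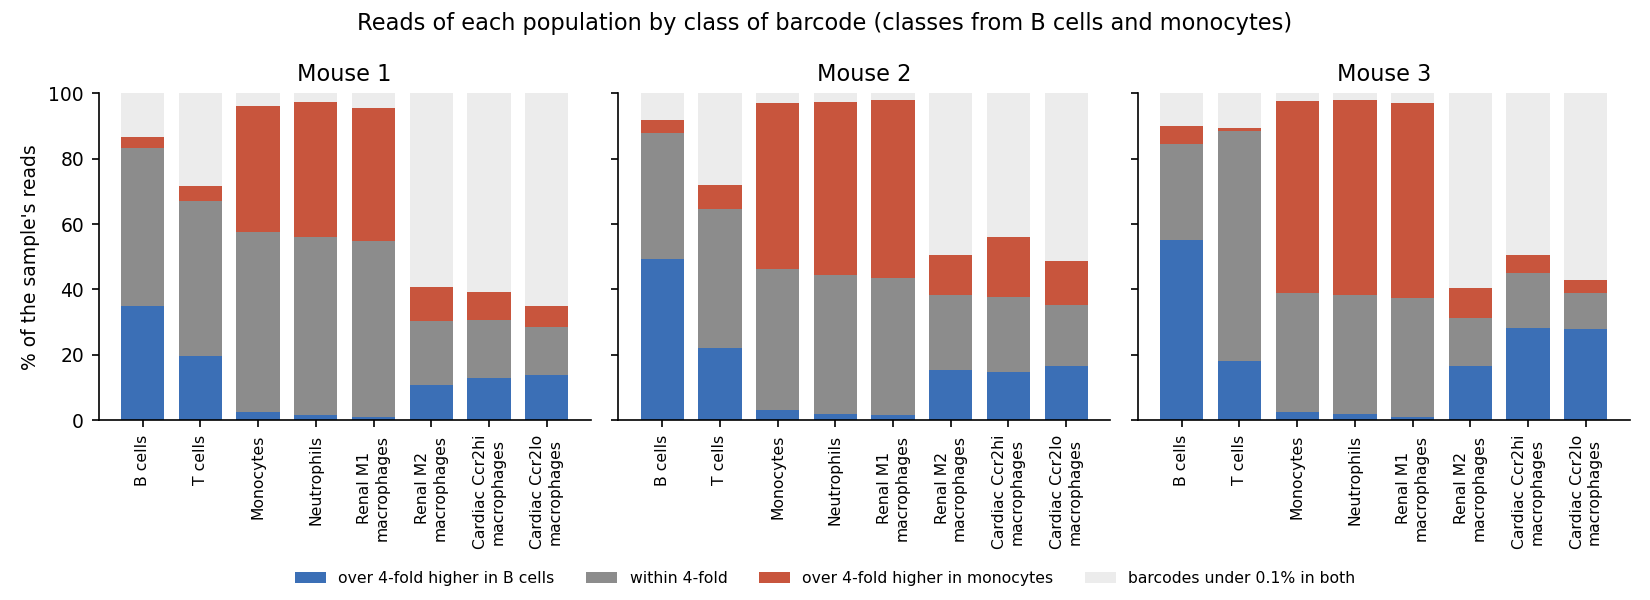
Percentage of each sample's reads (y axis) held by B-skewed (blue), even (grey) and monocyte-skewed (red) barcodes and by barcodes below 0.1% in both B cells and monocytes (light grey), for the 8 populations of each mouse (x axis). Classes were set on B cells and monocytes only; neutrophils and renal M1 macrophages have bars like monocytes, with 51.5% and 51.6% of reads on average in monocyte-skewed barcodes.

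Barcodes of a mouse also appeared at low levels in the samples of other mice, which sets a floor for what a low share can show. The 10 leading B cell barcodes of each mouse reached a median of 0.149% of their own level in the B cells of the other mice, with a highest value of 13.8%. That highest value belongs to a barcode with 3.34% of B cell reads in mouse 3 and 0.461% in mouse 1. It was B-skewed in both and is given below among barcodes of several mice, so it is no measure of the floor. The 10 leading monocyte barcodes reached a median of 0.0912% of their own level in the other mice's monocytes, with a highest value of 0.384%. For B-skewed barcodes the median monocyte share in their own mouse, 0.0118%, 0.0121% and 0.01003%, stood above the median of the highest share in the other mice's monocytes, 0.000263%, 0.000575% and 0.000186%. The monocyte share was above that level in 74 of 103, 61 of 81 and 82 of 105 B-skewed barcodes. The B cell share of monocyte-skewed barcodes was above the level in other mice's B cells in 23 of 27, 17 of 20 and 20 of 21. For the rest, a low share in their own mouse is not above what samples of other mice held.

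A few barcodes stood at like levels in all 3 mice. They were chosen after their values were seen, as barcodes at 0.01% or more in the monocytes of all 3 mice and within 10-fold there.
RC-a: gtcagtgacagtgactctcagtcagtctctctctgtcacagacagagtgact
RC-b: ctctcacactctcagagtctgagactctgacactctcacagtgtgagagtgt
RC-c: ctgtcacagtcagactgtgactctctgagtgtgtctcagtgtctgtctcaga
RC-d: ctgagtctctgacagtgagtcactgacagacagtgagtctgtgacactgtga
RC-a held 0.0303%, 0.0289% and 0.0514% of B cell reads in mice 1, 2 and 3, against 0.360%, 0.191% and 0.223% of monocyte reads. RC-b held 0.0179%, 0.0183% and 0.0260% of B cell reads, against 0.205%, 0.166% and 0.155% of monocyte reads. RC-c held 0.0147%, 0.0273% and 0.0364% of B cell reads, against 0.169%, 0.103% and 0.107% of monocyte reads. RC-d was lower, with 0.00142% to 0.00444% of B cell reads and 0.0247% to 0.0544% of monocyte reads. Choice by the monocyte level favours a lower level in B cells, so nothing is read from their direction. They gave 6 of the 68 monocyte-skewed calls. Their sum was 0.790%, 0.485% and 0.534% of monocyte reads, a small part of the sums given for that class. Their source was not tested.

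Of 440 distinct barcodes at 0.1% or more in B cells or monocytes of any mouse, 12 met that level in more than a single mouse. Without the RC barcodes 9 were left, and 6 of these fell in the same class in both mice, 5 B-skewed and 1 monocyte-skewed, beside 63.5% and 14.9% of all barcodes classed. The highest of them held 0.461% and 3.34% of B cell reads in mice 1 and 3, against 0.0209% and 0.137% of monocyte reads. Whether such barcodes mark daughter cells of a founder that divided in culture or separate founders with the same barcode was not tested.

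A test of single barcodes across mice can see only barcodes found in several mice. With edgeR's quasi-likelihood test on the counts, 0 of 953 barcodes passed an adjusted p of 0.05 (0.0%), while 34 had an unadjusted p under 0.05, and the smallest adjusted p was 0.501. With the mouse as a replicate block, edgeR again called 0, with 7 at an unadjusted p under 0.05. In the fit without the block the spread includes the differences in barcode level between mice, and the check described with the processing shows that it could not call 4-fold changes here, so its count of 0 says nothing about B cells and monocytes. DESeq2 was also fitted without the mouse block, on the same 953 barcodes, and the check did not cover it. It called 8 of the 88 barcodes for which it gave an adjusted p (9.09%), all higher in B cells, with a smallest adjusted p of 0.000713. The rest of the 953 got no adjusted p. The B cell level of each of the 8 differed strongly between mice. Of these 8, the barcode of highest level held 0.128%, 0.000369% and 0.0313% of B cell reads and at most 0.000376% of monocyte reads.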

How the data were processed

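Genomic barcodes were amplified from sorted cells by 18 cycles of PCR, and indexes were added in 9 to 11 more, per the labels' protocols. The deposited files hold raw read counts of each barcode sequence in each sample, not normalized; trimming, filtering and counting are not given in the sources used here. Groups and mouse numbers came from the sample titles. The members, thresholds and lists were chosen with earlier results of these data known. The unit compared is the mouse (n = 3). The labels do not say whether the 3 recipients received cells of the same culture, so p-values refer to these samples only. An exact p at its smallest possible value shows only that no other arrangement was more extreme, and does not measure the size of a spread.

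Shares were counts over the sample total. Barcodes named in the text were, per mouse, the 3 highest in B cells, the 3 highest in monocytes, the 3 most B-skewed, the 3 most monocyte-skewed, and the 2 nearest to an even ratio among those at 1% or more in both. A barcode on several lists keeps the first name in the order BS, MS, EV, BH and MH. RC barcodes and those named by value alone were chosen after their values were seen. The mouse numbers pair the samples because same-numbered samples come from the same animal, and the overlap of barcodes was 0.381 within and 0.00906 between numbers. Permutation tests enumerated all 20 label assignments, 8 sign flips or 6 pairings, with Benjamini-Hochberg adjustment over 7 tests. Wilson 95% intervals of single shares were at most 0.0470 percentage points wide and cover counting error only. Counts were tested with edgeR 4.0.16 (TMM, filterByExpr, quasi-likelihood) and DESeq2 1.42.0 in R 4.3.3; other values used Python 3.11.15, numpy 2.4.6, pandas 2.3.3 and scipy 1.17.1. The scripts were tested on simulated data with the barcode levels of each mouse, in which 200 barcodes were raised 4-fold in the B cells of every mouse (dispersion 0.05). There edgeR without the mouse block called none of the 200, and with it called 199, with 18 false calls. Changes that differ between mice were not simulated, so what the block fit could call in the real data is not known. Alternatives were thinning to the shallowest sample, merging barcodes 1 mismatch from a barcode 10 times as abundant, a minimum of 10 reads, removal of barcodes 100 times as abundant in another mouse, other presence limits, folds, added amounts, minimum shares and similarity indexes, and leaving out each mouse. Further alternatives, added after seeing the data, removed the RC barcodes, centred the ratios, counted barcodes of like profile once, or joined the block with removal of the RC barcodes.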

Additional observations from a re-analysis of the deposited data

How the results depend on the processing

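Over the 176 values recomputed under alternatives, no tested difference reversed, and reversal was judged for tested differences only. Of the others, 26 values without a test, or counts, moved by more than the spread over mice (for counts, by over 1.5 times). Tested differences could not pass the threshold under any setting with 3 mice, so their side of it says nothing about stability. By size, thinning, merging near sequences, a minimum of 10 reads, removal of barcodes from other mice and leaving out each mouse changed no tested difference by over 1.5 times. The T cell minus neutrophil share in B-skewed barcodes (18.2 points) ranged from 7.88 to 38.3 points over the ways of drawing the class, and the neutrophil minus T cell share in monocyte-skewed barcodes (47.1) was 31.2 at 10-fold. The B cell and monocyte overlap minus that of B cells with T cells (0.0449) was 0.00477 by the Morisita-Horn and 0.0812 by the Jaccard index, and minus that of neutrophils with monocytes (-0.526) was -0.194 by Jaccard. The percentage of B-skewed barcodes, 63.8%, became 44.3% at 10-fold, 24.1% with 0.1% added, 43.2% and 30.8% at minimum shares of 0.01% and 1%, and 45.1% with centred ratios. The percentage within 4-fold, 21.3%, became 8.13% at 2-fold, 47.4% at 10-fold, 67.6% with 0.1% added, 50.2% and 39.7% at minimum shares of 0.01% and 1%, and 32.4% with centred ratios. The percentage of monocyte-skewed barcodes, 14.9%, became 21.7% at 2-fold, 8.33% at 10-fold, 15.6% and 8.32% with 0.001% and 0.1% added, 6.62% and 29.5% at minimum shares of 0.01% and 1%, 14.1% without the RC barcodes, 22.6% with centred ratios and 15.4% with barcodes of like profile counted once. At a minimum share of 1%, B-skewed and monocyte-skewed barcodes were thus about equally frequent. With presence set at 0.1%, 27.7% of B cell barcodes were found in monocytes and 66.3% of monocyte barcodes in B cells; at 0.001% the second share was 67.6%. Spearman's rho was 0.381 without the RC barcodes. The count of barcodes called across mice was 1 with edgeR on library totals without TMM (adjusted p = 0.0138) and 8 with DESeq2, both fitted without the mouse block. Where a setting changes the rule itself (fold, minimum, added amount, presence) its construction moves the value; for TMM and DESeq2 the cause was not tested.

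With the mouse as a replicate block, the ratio of effective numbers (3.50) and of barcodes present (2.25) had p = 0.25 by exact sign flips, the smallest possible with 3 mice, against 0.1 without the block, and edgeR called 0 barcodes, also without the RC barcodes. The block changed no call, but edgeR's count of 0 without it is void, since that fit could not call 4-fold changes here. For the count of 0 with the block, changes that differ between mice were not simulated, so nothing is concluded from it. Low shares are limited less by read depth, at which a count of 0 allows at most 3.11e-05%, than by the level of the same barcodes in other mice, with medians of 0.000186% to 0.000575% for B-skewed barcodes in other mice's monocytes.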
